A study of Macaca mulatta with 4 samples.

Results

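The 7 genes described here code for 3 fibroblast growth factor (FGF) receptors, FGFR1, FGFR2 and FGFR3, for the secreted ligand FGF9, and for 3 FGFs that stay inside the cell, FGF12, FGF13 and FGF14. They were taken by symbol from the 30807 genes of the files, and each symbol matched 1 row (ENSMMUG00000022478 for FGFR1, ENSMMUG00000009594 for FGFR2, ENSMMUG00000019945 for FGFR3, ENSMMUG00000009912 for FGF9, ENSMMUG00000000949 for FGF12, ENSMMUG00000012484 for FGF13 and ENSMMUG00000002875 for FGF14). The choice was made by name and not by a measured level, though with earlier results of these data known. Their unique molecular identifiers (UMIs, each standing for 1 captured RNA molecule) were summed over the nuclei of each cell class in each library and are given as CPM, that is, scaled to the same total of UMIs in every class and library.

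Secreted FGFs bind receptor tyrosine kinases of the FGFR family together with heparan sulfate. The receptors signal through the adaptor FRS2 to RAS and the ERK kinases. This switches on ETV transcription factors and feedback inhibitors of the Sprouty (SPRY) and Spred families. In the cerebellum this pathway is known for its part in the formation of Bergmann glia, the radial glia on which granule cells (GCs) migrate, and FGF9 is a ligand released by neurons. FGF12, FGF13 and FGF14 are FGF homologous factors. They are not secreted, they bind the cytoplasmic tail of voltage-gated sodium channels, and mutations of FGF14 cause a spinocerebellar ataxia.

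Single-nuclei RNA was sequenced from the cerebellar hemispheres, with a part of the vermis, of 4 rhesus macaque fetuses, 1 library per fetus, on the 10x Genomics 3' platform. The 2 Control fetuses, a female and a male of 130 days of gestation, had no intervention, so that the injection itself and the agent cannot be told apart. The 2 LPS fetuses, a male of 133 days and a female of 131 days, had received 1 mg of lipopolysaccharide (LPS), a bacterial wall component, into the amniotic fluid 5 days before delivery as a model of chorioamnionitis. Libraries are named here by group and sex.

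The libraries held 34282015 to 61665690 UMIs. Nuclei were the barcodes in which 500 or more genes were seen and no more than 5% of UMIs were mitochondrial. They numbered 9250, 8621, 7804 and 6890 in Control female, Control male, LPS male and LPS female, 32565 in all. The female libraries were deeper, with medians of 4508 and 4063 UMIs per nucleus against 1882 in Control male and 2308.5 in LPS male. LPS male stood apart, since 38.7% of its UMIs lay in nuclei against 58.7 to 73.9% in the other libraries. It also held 1883 of the 2487 nuclei of a cluster led by ribosomal protein genes that was left unnamed. Each pair of libraries shared 16 to 21 cell barcodes. Free RNA was profiled in barcodes with at most 100 UMIs, and its level is given beside the results because it adds UMIs to nuclei of every class.

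Classes were named from marker lists after clustering without the 7 genes and without the other 47 genes of the FGF list used below. The granule lineage held 22311 nuclei, Bergmann glia 1510, astrocytes 1675, oligodendrocytes 466 and Purkinje cells 130. The Purkinje nuclei numbered 32, 56, 17 and 25 in Control female, Control male, LPS male and LPS female. The names were read back against the same marker lists that gave them, so what follows describes the classes and is no independent check. In every library 8 of 9 granule, 8 of 9 Bergmann glia, 10 of 10 astrocyte, 8 of 9 Purkinje and 7 of 8 oligodendrocyte markers were higher in their own class than on average in the other classes. Of the defining markers, TNC had a mean of 4430 CPM in Bergmann glia, AQP4 349 CPM in astrocytes and ITPR1 13744 CPM in Purkinje cells, while OLIG1 was close to 0 (0.323 CPM) in oligodendrocytes. BARHL1, SOX10, KIT and EOMES were not among the symbols of the gene list and were not analysed here.

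**Figure D1:**
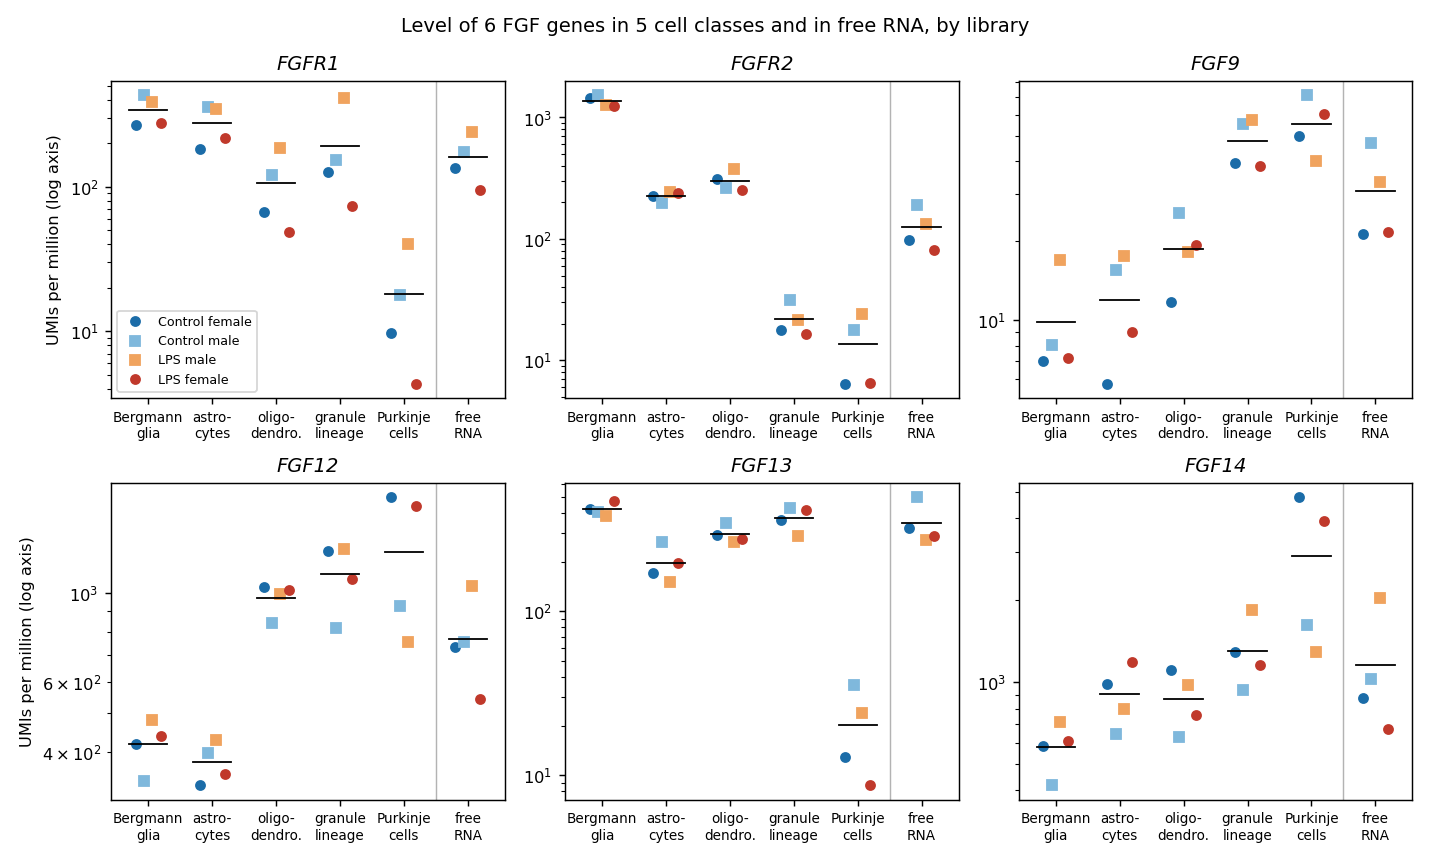
UMIs scaled to an equal total per class and library (CPM, log axis, a separate scale for each gene) of 6 FGF genes in 5 cell classes and in free RNA. Each point is 1 library (n = 4) and the black line is their mean; circles are female and squares male fetuses. FGFR2 in Bergmann glia lies between 1237 and 1518 CPM, above every other class, and FGF13 and FGFR1 are lowest in Purkinje cells.

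Of the 5 classes, FGFR2 was highest in Bergmann glia. Its level was 1448 CPM in Control female, 1518 in Control male, 1262 in LPS male and 1237 in LPS female, with a mean of 1366 ± 138 (SD, n = 4). In astrocytes it was 226, 197, 242 and 240 CPM in the same order, and in granule nuclei 18.0, 31.7, 21.7 and 16.5 CPM. The ranges of these 3 classes did not overlap. By the quasi-likelihood test of edgeR with the library as a block, FGFR2 was 66.5-fold higher in Bergmann glia than in granule nuclei (95% interval 48.9 to 90.6, adjusted p = 2.0e-15) and 6.29-fold higher than in astrocytes (4.82 to 8.22, adjusted p = 1.6e-09). Astrocytes in turn were 10.6-fold above granule nuclei (8.0 to 14.0, adjusted p = 2.6e-12).

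Read per nucleus the picture was similar. Nuclei with at least 1000 UMIs were thinned to 1000 UMIs each. Of these, 67.9 to 73.8% of Bergmann glia had an FGFR2 UMI, against 15.7 to 19.7% of astrocytes and 1.71 to 3.03% of granule nuclei. Left out were nuclei with fewer UMIs, 3116 over all clusters, named or not, with 1788 of them in LPS male. Without thinning the shares were 84.1 to 97.3%, 26.4 to 43.7% and 5.30 to 6.73%. Median depth was 2206 to 6022.5 UMIs in Bergmann glia and 1726 to 4355.5 in granule nuclei. Free RNA held 81.8 to 192 CPM of FGFR2, which is above the level in granule nuclei in every library. With the expected free RNA subtracted the granule mean fell from 22 to 3.77 CPM, so over the whole lineage most FGFR2 UMIs of granule nuclei are at the level that free RNA gives. With the subtraction the differences of Bergmann glia and astrocytes from the whole granule lineage moved from 6.06 to 8.90 and from 3.4 to 6.07 on the log2 scale. In LPS male the expected free RNA exceeded the granule count, which was cut off at 0. The sizes of 8.90 and 6.07 therefore depend in part on that floor. The first 2 granule stages, described with the lineage, kept more FGFR2 than the rest.

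In oligodendrocytes FGFR2 stood at 309, 264, 377 and 252 CPM, next in order after Bergmann glia and above astrocytes in each library. This step did not pass the test (1.39-fold, 1.06 to 1.81, adjusted p = 0.053). It passed without LPS female (log2 difference 0.62, adjusted p = 0.045). Purkinje cells had a mean of 13.7 CPM from 17 UMIs in all.

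FGFR1 was shared among glia and maturing neurons. Bergmann glia had 268, 428, 387 and 274 CPM in Control female, Control male, LPS male and LPS female, and astrocytes 182, 356, 345 and 217 CPM. The male libraries were the higher ones in both classes, and Bergmann glia and astrocytes were not called different by the test (1.33-fold, 0.932 to 1.91, adjusted p = 0.42). Granule nuclei had 127, 154, 412 and 72.9 CPM, with LPS male far above the others. Free RNA held 134, 173, 239 and 95.4 CPM in the same order. This is below Bergmann glia and astrocytes in each library, and above granule nuclei in all libraries but LPS male. Bergmann glia exceeded granule nuclei 2.20-fold (1.54 to 3.15, adjusted p = 8.7e-04). For astrocytes the excess was 1.65-fold (1.15 to 2.36, adjusted p = 0.021), and this call was lost without Control female, Control male or LPS female (adjusted p = 0.095, 0.20 and 0.16).

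Oligodendrocytes carried 67.0, 121, 186 and 48.9 CPM of FGFR1, 2.70-fold below astrocytes (1.78 to 4.08, adjusted p = 6.3e-04). In each library they lay below free RNA. Purkinje cells had the lowest level of the 5 classes, a mean of 18.0 CPM from 20 UMIs. That was 10.7-fold below granule nuclei (5.64 to 20.4, adjusted p = 5.0e-06) and below free RNA, which held 95.4 to 239 CPM. With free RNA subtracted the log2 difference moved from -3.42 to -5.39. In LPS female the expected free RNA exceeded the Purkinje count, which was cut off at 0, so the size of -5.39 depends in part on that floor. Outside these classes, FGFR1 had means of 553 ± 160 CPM in fibroblasts and 400 ± 82.9 CPM in microglia (SD, n = 4).

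FGFR3, the third receptor, was hardly seen. All nuclei together held 59 UMIs of it, of which 21 lay in Bergmann glia and 21 in astrocytes, and it did not pass the filter on low counts when all libraries were used. Without that filter it was higher than in granule nuclei by 4.53 on the log2 scale in Bergmann glia (adjusted p = 1.6e-09) and by 4.29 in astrocytes (adjusted p = 9.8e-09), on these few UMIs. Between LPS and Control it was tested in Bergmann glia and astrocytes in the same way and with Control female, Control male or LPS female left out, and was called in none of these fits (lowest adjusted p = 1.0). Its mean was 4.1 CPM in Bergmann glia and 4.0 CPM in astrocytes, and the LPS male library was highest in both, with 9.0 and 11.3 CPM. No UMI was found in the 130 Purkinje nuclei, which allows up to 1.88 CPM over the 4 libraries (3 counts, counting error only). Absence of the transcript from other classes cannot be read at this depth.

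FGF9, the secreted ligand, was higher in granule nuclei and Purkinje cells than in Bergmann glia and astrocytes. Granule nuclei had 39.5, 55.5, 57.6 and 38.5 CPM in Control female, Control male, LPS male and LPS female, and Purkinje cells 49.9, 71.2, 40.1 and 60.8 CPM. Bergmann glia had 7.0, 8.1, 17.0 and 7.2 CPM and astrocytes 5.7, 15.5, 17.5 and 9.0 CPM, so that neither glial class reached the granule level in any library. Granule nuclei were 4.79-fold above Bergmann glia (3.57 to 6.42, adjusted p = 3.6e-09) and 4.29-fold above astrocytes (3.25 to 5.66, adjusted p = 5.2e-09). The glial level lay under that of free RNA (21.2 to 46.8 CPM). With free RNA subtracted it fell to 4.2 CPM in Bergmann glia and 4.6 CPM in astrocytes. The log2 differences from granule nuclei moved from -2.26 to -3.55 and from -2.10 to -3.66. In Control male the Bergmann glia count was cut off at 0 by the subtraction, so the size of -3.55 depends in part on that floor. Oligodendrocytes, with a mean of 18.6 CPM, did not pass the test against astrocytes (1.66-fold, 1.09 to 2.55, adjusted p = 0.062), and passed it without LPS male (adjusted p = 0.025). Purkinje cells exceeded granule nuclei 1.40-fold (1.05 to 1.87, adjusted p = 0.048), a call that was lost without Control female, Control male or LPS female (adjusted p = 0.19, 0.11 and 0.24) and rests on 92 UMIs. Interneurons did not share the high level, with means of 12.5 CPM in PAX2+ interneurons, 9.1 CPM in molecular layer interneurons and 8.4 CPM in Golgi cells, all under free RNA and close to the glial values. Unipolar brush cells had 0 to 42.8 CPM with a mean of 21.6 CPM, on 9 UMIs in all, too few to place them.

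FGF14, a regulator of sodium channels at the axon initial segment, had its highest mean of the 5 classes in Purkinje cells. It stood there at 4783, 1623, 1292 and 3922 CPM in Control female, Control male, LPS male and LPS female, and in granule nuclei at 1286, 932, 1839 and 1154 CPM. Purkinje cells were above granule nuclei in both female libraries and in Control male, and below them in LPS male. In the edgeR fit the excess was 2.32-fold (1.53 to 3.51, adjusted p = 0.0014), or 1.22 on the log2 scale. The interval and p rest on a spread shared by all 5 classes, not on that of this difference between libraries. With free RNA subtracted the excess was 0.87 on that scale and not called (adjusted p = 0.12). The female libraries were above the male ones whatever the exposure, and Purkinje depth moved with this: the median was 23486 and 17791 UMIs per nucleus in the female and 6725 and 7111 in the male libraries. The part of depth and free RNA in that split was not tested. Outside the 5 classes, unipolar brush cells had 3676, 1710, 1771 and 4168 CPM, above Purkinje cells in 3 of the 4 libraries. Mature granule nuclei, with a mean of 2549 CPM, were exceeded by Purkinje cells in 2 of the 4 libraries, and their ranges overlapped.

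Bergmann glia were called lower in FGF14 than granule nuclei, and astrocytes were not in the main results. Bergmann glia had 583, 418, 713 and 605 CPM, 2.16-fold below granule nuclei (1.44 to 3.25, adjusted p = 0.0024), and astrocytes had 986, 644, 796 and 1190 CPM. The astrocyte level did not pass the test against granule nuclei (1.46-fold lower, interval 0.978 to 2.19, adjusted p = 0.11), and passed it with doublets removed or free RNA subtracted (adjusted p = 0.048 and 0.032). Bergmann glia were not called below astrocytes (1.48-fold, 0.985 to 2.22, adjusted p = 0.29), but were without LPS male (adjusted p = 0.017). Free RNA held 671 to 2038 CPM of FGF14, the highest value being that of LPS male, and this is above the Bergmann glia level in every library. With it subtracted the difference between Bergmann glia and granule nuclei moved from -1.11 to -2.14 on the log2 scale.

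FGF12, a second sodium channel partner, was spread over neurons and oligodendrocytes. Granule nuclei had 1273, 819, 1289 and 1083 CPM, Purkinje cells 1739, 929, 754 and 1655 CPM and oligodendrocytes 1037, 841, 996 and 1018 CPM in the same order of libraries. Purkinje cells and granule nuclei were not called different (1.25-fold, 0.932 to 1.67, adjusted p = 0.21), but without LPS male Purkinje cells were higher (log2 difference 0.58, adjusted p = 0.0079). Bergmann glia, at 338 to 481 CPM, were 2.53-fold below granule nuclei (1.89 to 3.39, adjusted p = 8.5e-06). Astrocytes, at 330 to 430 CPM, were 2.91-fold below them (2.16 to 3.91, adjusted p = 1.4e-06). Oligodendrocytes were 2.67-fold above astrocytes (1.98 to 3.60, adjusted p = 9.4e-06), with no overlap. Subtracting free RNA, which held 544 to 1043 CPM, moved these 3 differences from -1.34 to -1.93, from -1.54 to -2.39 and from 1.42 to 2.23 on the log2 scale.

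FGF13, which binds microtubules as well as sodium channels, followed another order. Bergmann glia had 421, 407, 380 and 472 CPM, granule nuclei 362, 425, 290 and 415 CPM, and the 2 classes were not called different (1.20-fold, 0.978 to 1.47, adjusted p = 0.14). Astrocytes had 173, 264, 151 and 198 CPM, 2.29-fold below Bergmann glia (1.85 to 2.83, adjusted p = 4.7e-06) and 1.91-fold below granule nuclei (1.55 to 2.35, adjusted p = 1.0e-05). Oligodendrocytes, with a mean of 295 ± 34.4 CPM (SD, n = 4), were 1.60-fold above astrocytes (1.28 to 1.99, adjusted p = 0.0012). Astrocytes and oligodendrocytes both lay below free RNA in each library. With it subtracted their difference moved from 0.67 to 1.09 on the log2 scale. Purkinje cells had 12.9, 35.6, 24.1 and 8.7 CPM from 29 UMIs in all. That is 18.9-fold below granule nuclei (13.6 to 26.4, adjusted p = 1.4e-12) and below the 274 to 498 CPM of free RNA in each library. In Purkinje cells, then, FGF12 and FGF14 were present and FGF13 was at background, since none of it was left when free RNA was subtracted.

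FGF13 was also high outside these 5 classes. Endothelial nuclei had 2310, 1339, 1716 and 1893 CPM, with a mean of 1814 ± 403 (SD, n = 4). Fibroblasts had a mean of 1195 ± 180 CPM and PAX2+ interneurons, immature inhibitory neurons of the cerebellum, 1140 ± 286 CPM. FGFR2 outside the 5 classes was highest in the 39 choroid or ependymal nuclei, with 1303, 1852, 56.9 and 1263 CPM. The low value is that of LPS male, with 13 such nuclei, against 2, 3 and 21 in Control female, Control male and LPS female. Proliferating glia had 672, 649, 592 and 577 CPM of FGFR2 in Control female, Control male, LPS male and LPS female. Fibroblasts had a mean of 407 CPM, and both means were above that of oligodendrocytes.

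Read against the background, the number of calls among the 7 genes carries little by itself. Between Bergmann glia and granule nuclei 5 of the 6 tested members were called, 2 higher and 3 lower in Bergmann glia, and 47.7% of all genes tested were called. For astrocytes against granule nuclei 2 were higher and 3 lower, where 24.9% and 22.7% of all genes were called in these directions (47.7% in either). For oligodendrocytes against astrocytes 2 were higher and 1 lower, where the shares were 15.4% and 17.6% (33% in either). For Purkinje cells against granule nuclei 2 were higher and 2 lower, where they were 21.9% and 25.4% (47.2% in either). Between Bergmann glia and astrocytes 2 of 6 were called, FGFR2 and FGF13, both higher in Bergmann glia, where 9.62% of all genes were called in either direction. Many of the genes behind these percentages formed the clusters, while the 7 members were kept out of them.

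The granule lineage was divided into stages by its own markers: 1804 proliferating precursors (MKI67, TOP2A), 2803 committing, 4387 migrating, 6953 maturing and 2672 mature nuclei. A further 3692 granule nuclei, led by NELL1 and by TRPC7 among others, matched no single stage and are left out of the stage tests. In this order FGF12, FGF14, FGF9 and FGFR1 rose and FGFR2 fell, while no step of FGF13 was called. Between mature nuclei and proliferating precursors 5 of the 6 tested members were called, against 56.8% of all genes tested. For the single steps 0 members were higher and 1 lower in committing nuclei than in precursors (8.29% and 12.8% of all genes, 21.1% in either direction), and 2 higher and 1 lower in migrating than in committing nuclei (23.1% and 21.4%, 44.5% in either). In maturing nuclei 4 were higher and 0 lower than in migrating ones (18.5% and 19.6%, 38.2% in either), and in mature nuclei 2 were higher and 0 lower than in maturing ones (10.3% and 11.2%, 21.6% in either).

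**Figure D2:**
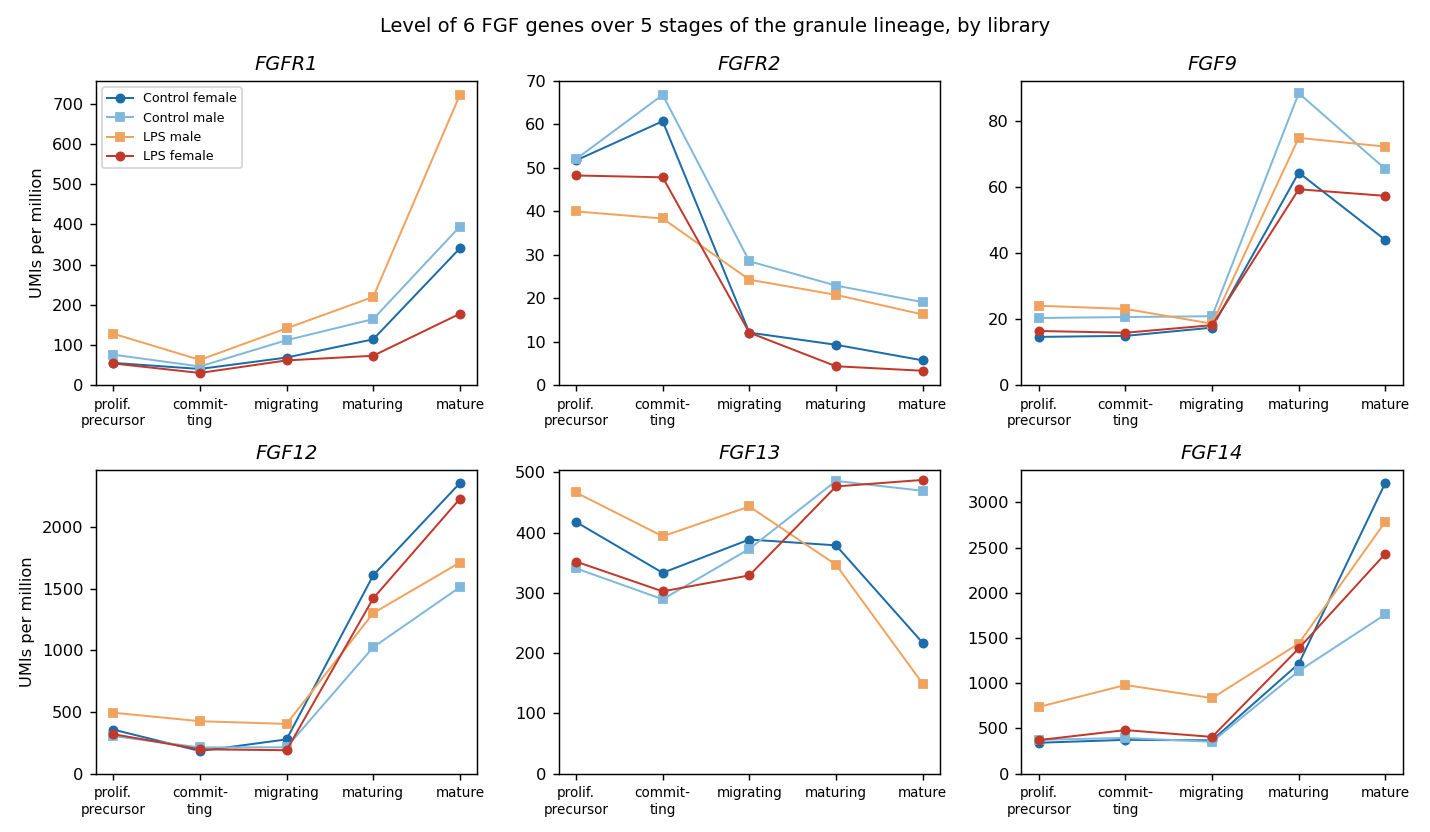
CPM of 6 FGF genes over 5 stages of the granule lineage, in order of maturation, with 1 line per library (n = 4; linear axes from 0, a separate scale for each gene). FGF12, FGF14 and FGF9 rise between the migrating and the maturing stage in each library, FGFR1 rises again to the mature stage, and FGFR2 falls after the committing stage.

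FGF12 had 358, 305, 495 and 321 CPM in proliferating precursors in Control female, Control male, LPS male and LPS female, 278, 214, 404 and 191 CPM in migrating, 1609, 1025, 1302 and 1422 CPM in maturing and 2356, 1512, 1712 and 2228 CPM in mature nuclei. The main gain came between the migrating and the maturing stage (5.37-fold, 3.64 to 7.92, adjusted p = 5.1e-06). The further step to mature nuclei did not pass the test (1.45-fold, 1.01 to 2.09, adjusted p = 0.15), and it passed without LPS male (adjusted p = 0.037). Committing nuclei against precursors did not pass either (1.55-fold lower, 1.06 to 2.27, adjusted p = 0.10), and passed without LPS male (adjusted p = 0.0090) or with free RNA subtracted. Migrating against committing nuclei passed without LPS male or with free RNA subtracted, and not with all libraries as deposited (1.31-fold higher, 0.896 to 1.92, adjusted p = 0.24). From precursors to mature nuclei FGF12 rose 6.61-fold (4.46 to 9.79, adjusted p = 8.5e-07).

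FGF14 rose at the same step and once more after it. It had 369, 353, 836 and 407 CPM in migrating nuclei, 1216, 1135, 1439 and 1385 CPM in maturing and 3216, 1761, 2786 and 2432 CPM in mature nuclei. The LPS male library was above the others in each stage up to the maturing one and within their range in mature nuclei. The gain was 2.97-fold from migrating to maturing (2.09 to 4.23, adjusted p = 1.1e-04) and 1.95-fold from maturing to mature nuclei (1.38 to 2.75, adjusted p = 0.0082). Without LPS female the second gain had an adjusted p of 0.051. In the first 3 stages FGF12 and FGF14, with means of 255 to 558 CPM, were under the level of free RNA in each library.

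FGF9, the ligand, changed in a single step. Its mean was 18.8 ± 4.2 CPM in proliferating precursors, 18.6 ± 3.9 in committing and 18.7 ± 1.5 in migrating nuclei (SD, n = 4). In maturing nuclei it was 64.2, 88.3, 74.8 and 59.2 CPM, above every earlier value, and in mature nuclei 43.8, 65.3, 72.1 and 57.2 CPM. The step from migrating to maturing was 3.9-fold (3.31 to 4.59, adjusted p = 4.9e-12). The fit also called a difference of 0.38 on the log2 scale between committing and migrating nuclei (adjusted p = 0.039), but it was lost without Control female, Control male or LPS female (adjusted p = 0.23, 0.067 and 0.19). The decline from maturing to mature nuclei did not pass (-0.28, adjusted p = 0.059), and passed without LPS male (adjusted p = 0.030).

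FGFR1 first fell and then rose. It stood at 55.1, 75.7, 128 and 53.7 CPM in proliferating precursors, at 40.1, 46.3, 62.6 and 30.1 CPM in committing nuclei and at 341, 395, 723 and 178 CPM in mature nuclei. Each of the 4 steps passed the test. FGFR1 fell 1.74-fold from precursors to committing nuclei (1.43 to 2.12, adjusted p = 1.7e-04), and this call was lost with doublets removed (adjusted p = 0.060). It then rose 2.52-fold to migrating (2.08 to 3.04, adjusted p = 3.4e-08), 1.53-fold to maturing (1.3 to 1.80, adjusted p = 1.4e-04) and 2.78-fold to mature nuclei (2.38 to 3.26, adjusted p = 3.3e-09). In every stage LPS male was the highest and LPS female the lowest library. Up to and including the maturing stage FGFR1 lay below free RNA in every library, and in mature nuclei above it.

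FGFR2 was low throughout the lineage, yet it fell. It had 51.7, 52.0, 40.0 and 48.3 CPM in proliferating precursors and 60.8, 66.8, 38.4 and 47.8 CPM in committing nuclei, then 12.1, 28.5, 24.3 and 12.1 CPM in migrating and 5.7, 19.1, 16.3 and 3.3 CPM in mature nuclei. The fall from committing to migrating was 2.64-fold (1.59 to 4.36, adjusted p = 0.0036), and without Control female it missed the threshold (adjusted p = 0.064). All of these values were below free RNA. With it subtracted, 33.3 and 38.3 CPM were left in the first 2 stages and 0 to 2.3 CPM in the later ones. FGF13 stayed between means of 330 and 422 CPM in the 5 stages, and none of its 4 steps passed the test (adjusted p = 0.22 to 0.68). In mature nuclei its libraries split into 217 and 150 CPM in Control female and LPS male and 469 and 487 CPM in Control male and LPS female, a split that follows neither group nor sex.

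**Figure D3:**
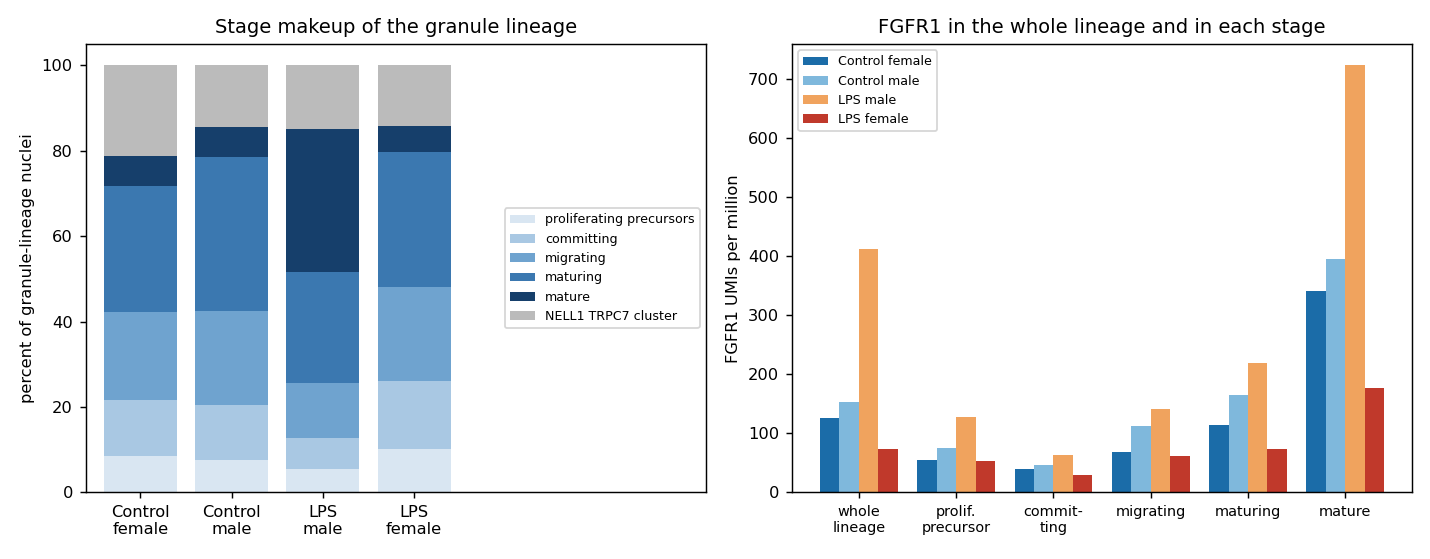
Left, percent of granule-lineage nuclei of each library in the 5 stages and in the NELL1 TRPC7 cluster (stacked bars). Right, FGFR1 in CPM in the whole lineage and within each stage, 1 bar per library. LPS male holds 33.4% mature nuclei against 6.07 to 7.09% in the others, and its FGFR1 excess is 412 against 72.9 to 154 CPM in the whole lineage.

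Along the oligodendrocyte lineage FGFR2 rose while FGFR1 and the homologous factors fell. The stages held 172 precursor cells, 133 premyelinating and 85 mature nuclei, and 58 of the mature nuclei came from LPS male, against 13, 5 and 9 in Control female, Control male and LPS female. FGFR2 had 41.4, 19.7, 56.0 and 18.3 CPM in precursor cells, in the order Control female, Control male, LPS male and LPS female. It had 602, 584, 402 and 342 CPM in premyelinating and 603, 289, 774 and 783 CPM in mature nuclei. Each library rose from the precursor to the premyelinating stage, and the ranges did not overlap. Mature oligodendrocytes exceeded precursors 19.5-fold (11.4 to 33.4, adjusted p = 1.0e-08).

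FGFR1 moved the other way, with a mean of 129 ± 59.3 CPM in precursors, 54.7 ± 37.6 in premyelinating and 29.1 ± 31.3 in mature nuclei (SD, n = 4). The loss was 3.26-fold (1.73 to 6.16, adjusted p = 0.0036), on 24 UMIs in mature nuclei and with no UMI in Control male. FGF13 lost the most of the homologous factors: it had 476, 484, 672 and 451 CPM in precursors and 49.6, 0, 48.9 and 108 CPM in mature nuclei, 9.27-fold lower (5.77 to 14.9, adjusted p = 7.8e-08). FGF14 fell from a mean of 1123 to 198 CPM (5.25-fold, 3.57 to 7.71, adjusted p = 2.6e-07) and FGF12 from 1284 to 428 CPM (2.91-fold, 2.08 to 4.07, adjusted p = 1.5e-05). All 5 tested members were called here, 1 higher and 4 lower, where 37.7% of all genes were called, 18.7% lower. FGF9 did not pass the filter, with 17 UMIs in precursors and 3 in mature nuclei.

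**Figure D4:**
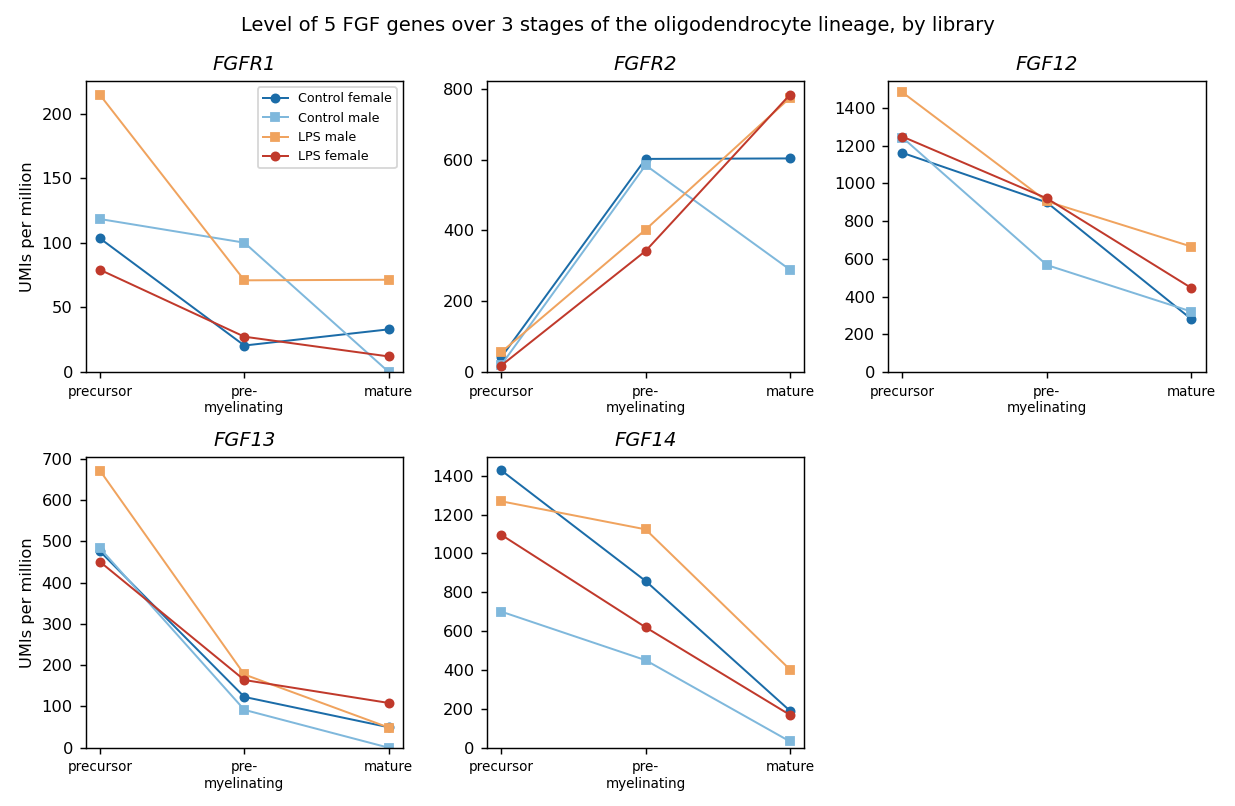
CPM of 5 FGF genes over 3 stages of the oligodendrocyte lineage, 1 line per library (n = 4; linear axes from 0, a separate scale for each gene). FGFR2 rises from 18.3 to 56.0 CPM in precursor cells to 289 to 783 CPM in mature nuclei, and FGF12, FGF13 and FGF14 fall in each library.

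Other genes of the pathway were taken from a list of 59 genes, of which 47 are in the files. Of the 27 that passed the filter for class comparisons, 16 were higher and 4 lower in Bergmann glia than in granule nuclei, with 25.7% and 22% of all genes called in these directions. All 7 tested feedback inhibitors were higher in Bergmann glia, from CBL (0.66 on the log2 scale, adjusted p = 6.6e-05) and SPRED2 (1.01, adjusted p = 1.3e-06) to IL17RD (3.33, adjusted p = 4.5e-12) and SPRY1 (3.55, adjusted p = 9.1e-13). Among transcription factor targets ETV5 was higher by 2.00 (adjusted p = 1.4e-10) and ETV4 by 1.04 (adjusted p = 0.049). FGF2, a secreted ligand, was higher by 2.00 (adjusted p = 7.3e-09), and the 4 tested carriers and matrix partners were higher, ANOS1 by 3.39 (adjusted p = 1.2e-06), SDC3 by 1.91 (adjusted p = 1.2e-08), SDC2 by 1.70 (adjusted p = 1.5e-10) and FGFBP3 by 0.74 (adjusted p = 0.043). Of the 8 adaptors SHC1 (1.46, adjusted p = 1.7e-04) and SOS2 (0.29, adjusted p = 0.033) were higher, and GAB1 (-0.49, adjusted p = 0.023) and GRB2 (-0.37, adjusted p = 0.043) lower. The sodium channels SCN3A (-2.11, adjusted p = 1.9e-10) and SCN8A (-0.98, adjusted p = 7.6e-08) were lower as well. The median difference of the 27 was 0.74 on the log2 scale, against 0.0020 over all 10741 genes tested.

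Against astrocytes, Bergmann glia again had more of the inhibitors SPRY1 (1.92 on the log2 scale, adjusted p = 1.2e-06), SPRY2 (1.29, adjusted p = 2.5e-04), SPRED2 (0.93, adjusted p = 1.5e-04) and SPRED1 (0.71, adjusted p = 1.1e-04). ETV5 was higher by 2.44 (adjusted p = 1.7e-09) and ETV4 by 2.08 (adjusted p = 0.025), ETV1 by 0.97 (adjusted p = 0.0498), and the carriers SDC3 by 0.62 (adjusted p = 0.044) and SDC2 by 0.51 (adjusted p = 0.0092). In all 9 of the 27 list genes were higher and 3 lower, where 4.66% and 4.96% of all genes were called. Those lower were ANOS1 (-2.12, adjusted p = 5.4e-04) and the sodium channels SCN3A (-0.78, adjusted p = 0.0025) and SCN8A (-0.38, adjusted p = 0.026).

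Along the granule lineage 18 of 34 tested list genes were higher and 9 lower in mature nuclei than in proliferating precursors, where 27.6% and 29.2% of all genes were called. The 3 ETV targets were higher, ETV1 by 3.31 on the log2 scale (adjusted p = 4.3e-09), ETV4 by 3.11 (adjusted p = 1.0e-06) and ETV5 by 2.29 (adjusted p = 8.5e-07). So were the 3 sodium channel genes of the list, which the homologous factors can bind, led by SCN1A (2.15, adjusted p = 2.4e-05) and SCN3A (1.27, adjusted p = 6.5e-07). Of the ligands, FGF18 was higher by 3.0 (adjusted p = 2.5e-05) while FGF10 (-2.91, adjusted p = 2.2e-07) and FGF2 (-1.31, adjusted p = 2.2e-04) were lower. FGFR4, the remaining signalling receptor, was lower too (-1.53, adjusted p = 6.9e-04). The heparan sulfate carrier SDC2 fell the most of the list (-3.28, adjusted p = 1.0e-16), and GPC3 fell by 1.02 (adjusted p = 0.015), while ANOS1 (0.97, adjusted p = 2.5e-04) and SDC3 (0.61, adjusted p = 0.0093) were higher. Of the 10 tested feedback inhibitors 6 were higher, led by SPRY3 (1.99, adjusted p = 4.3e-05) and SPRED3 (1.66, adjusted p = 0.0011), and 2 were lower, IL17RD (-1.81, adjusted p = 0.0014) and CBL (-0.34, adjusted p = 0.015). Of the 8 adaptors 3 were higher, with GRB2 at 0.50 (adjusted p = 6.7e-05) and FRS2 at 0.46 (adjusted p = 0.023), and 2 were lower, GAB1 (-1.90, adjusted p = 2.8e-14) and SOS2 (-0.44, adjusted p = 1.2e-05). The median of the 34 was 0.48, against -0.0025 over all 12197 genes tested.

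In oligodendrocytes 11 list genes passed the filter between mature and precursor nuclei, of which 1 was higher and 6 were lower, with 19% and 18.7% of all genes called. GAB1 was higher by 2.91 (adjusted p = 4.5e-09). The channels SCN3A (-3.12, adjusted p = 3.8e-07), SCN1A (-2.93, adjusted p = 3.0e-06) and SCN8A (-2.02, adjusted p = 2.2e-05) were lower, together with ETV5 (-2.47, adjusted p = 7.7e-04), ETV1 (-2.13, adjusted p = 7.2e-04) and SPRED1 (-0.64, adjusted p = 0.026).

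The genes whose pattern was most like that of each member were sought over 36 points, 9 classes or stages in 4 libraries, among 9472 genes. For FGFR2 they were IPCEF1 (Pearson r = 0.936 of log2(CPM + 1)), PLEKHH2 (0.929) and the unnamed gene ENSMMUG00000000428 (0.929), and for FGFR1 FNBP1 (0.887), SLC4A4 (0.871) and TSPAN5 (0.860). FGF9 was closest to ARFGEF3 (0.952), CNNM2 (0.897) and KSR2 (0.893), and FGF12 to CSMD3 (0.951), BRINP1 (0.946) and LRP1B (0.920). Among the genes closest to FGF14 were CACNB4 (0.903) and SLC4A10 (0.890), and FGF13 was closest to EPB41L4A (0.917), TBL1XR1 (0.896) and RTN3 (0.890). For FGFR3, on its few UMIs, they were GASK1A (0.849), RHPN1 (0.835) and GDPD2 (0.823). Among the members, FGF12 and FGF14 had the highest r of any pair (0.869) and FGFR2 and FGF9 the lowest (-0.764). The points share libraries, depth and free RNA, so these are descriptions.

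The comparison of LPS with Control asked whether these genes differed between the groups within a class. Both LPS fetuses (133 and 131 days) were older than both Control fetuses (130 days), so exposure and age cannot be told apart. None of the 6 testable members was called in any of the 5 classes or 5 granule stages, at the thresholds of an adjusted p under 0.1 and a log2 difference over 0.25 by edgeR. No gene of the whole table was called either (0% in each of the 10 comparisons), with 26 to 77 genes per comparison at an unadjusted p under 0.05, and DESeq2 called 0 to 2. No member had an unadjusted p under 0.05 in these comparisons. With 2 fetuses per group an exact two-sided permutation test cannot go below 0.333, and the p-values measure only the spread between these 4 fetuses.

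**Figure D5:**
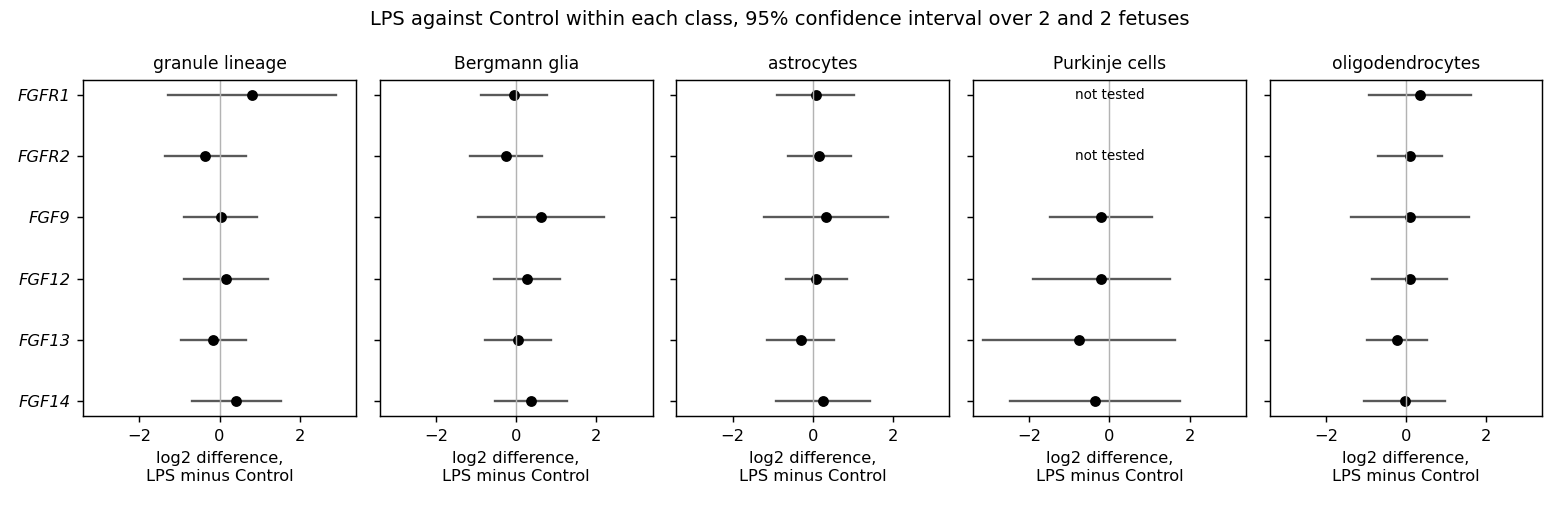
Log2 difference between LPS and Control (points, edgeR, 2 fetuses per group) with its 95% confidence interval (bars) for 6 FGF genes in 5 classes. Every interval includes 0. The interval of FGFR1 in granule nuclei runs from -1.29 to 2.89, and FGFR1 and FGFR2 did not pass the filter in Purkinje cells.

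For FGFR2 in Bergmann glia the LPS libraries, at 1262 and 1237 CPM, lay below the Control libraries, at 1448 and 1518 CPM. The difference was -0.25 on the log2 scale with an interval of -1.15 to 0.64, and it was -0.23 within females and -0.27 within males on log2(CPM + 1). FGF14 in Bergmann glia went the other way (0.37, -0.54 to 1.27), with 0.055 in females and 0.77 in males, and with free RNA subtracted it was -0.18. Of the 28 pairs of a member and a class that were tested, 5 had groups that did not overlap, and over all genes tested in the 5 classes the share was 16.6%, so the members' count is near the background. In 15 of the 28 the difference had opposite signs in the 2 sexes, where the share over all genes tested was 52.5%. In Bergmann glia the narrowest interval among the members was that of FGFR1 (-0.065, -0.89 to 0.76) and the widest that of FGF9 (0.62, -0.94 to 2.19).

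FGFR1 in granule nuclei had the largest fitted difference of the members in that class (0.80, -1.29 to 2.89, adjusted p = 1.0). It was carried by LPS male, at 412 CPM, while LPS female had 72.9 CPM and lay below both Control libraries. Without LPS male the difference was -0.94. LPS male also held 33.4% mature nuclei in its granule lineage, against 6.07% in LPS female and 7.03 and 7.09% in the Control libraries, and FGFR1 was higher in mature nuclei than in the other stages. LPS male was also the highest library within each stage. With the 5 stages weighted equally, which was chosen after seeing the data, the levels were 124, 159, 255 and 79.1 CPM. The difference of the group means was 0.24 there, against 0.79 in the whole lineage as found, both on log2(CPM + 1). The whole lineage also holds the 3692 nuclei that matched no single stage, so these 2 values differ in nuclei as well as in weights. By edgeR the difference was 0.26 within the mature stage (-1.27 to 1.79), and ran from -0.97 to 0.91 over the alternatives. Within the maturing stage it was 0.05 (-1.27 to 1.37), and ran from -0.87 to 0.60. The part of the stage makeup in the difference was not tested further. Free RNA of LPS male held 239 CPM of FGFR1 against 95.4 to 173 CPM elsewhere. With free RNA subtracted the difference was 0.94 in the granule lineage, 0.30 within the mature and 0.046 within the maturing stage, close to the values without subtraction.

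FGF14 in committing granule nuclei came nearest to a difference, with 981 and 482 CPM in LPS male and LPS female against 375 and 396 CPM in Control female and Control male (0.93, -0.05 to 1.91, unadjusted p = 0.059, adjusted p = 1.0). The groups did not overlap in the migrating stage (836 and 407 against 369 and 353 CPM) or in the maturing stage (1439 and 1385 against 1216 and 1135 CPM) either. Of the 30 pairs of a member and a granule stage, 5 had groups that did not overlap, where the share over all genes tested was 15.9%. Over the alternatives tried the difference in committing nuclei ran from 0.35 to 1.33. FGF14 in free RNA was 2038 CPM in LPS male against 671 to 1024 CPM in the other libraries, and the estimated free share of UMIs in committing nuclei was 23.9% there against 12.9 to 14.3%. With free RNA subtracted the difference in committing nuclei was 0.90 (0.13 to 1.67, unadjusted p = 0.029, adjusted p = 1.0 by edgeR), nearly as large as before.

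In Purkinje cells FGF14 differed by -0.37 (-2.48 to 1.75) and FGF12 by -0.20 (-1.91 to 1.51), intervals too wide at 17 to 56 nuclei per library to read a direction. In oligodendrocytes FGFR2 differed by 0.11 (-0.69 to 0.91), with 309 and 264 CPM in Control and 377 and 252 CPM in LPS, and the 2 LPS libraries bracket the 2 Control libraries. FGF13 in oligodendrocytes, at 293 and 344 CPM in Control and 266 and 278 CPM in LPS, did not overlap and differed by -0.22 (-0.98 to 0.53). Of the other pathway genes none was called in any class or stage. ETV4 in mature granule nuclei, singled out after its value was seen, was the only one of the 28 list genes tested there with an unadjusted p under 0.05 by edgeR (-1.94 on the log2 scale, adjusted p = 1.0).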

How the data were processed

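Nuclei were isolated from flash frozen hemispheres with a part of the vermis, 1 library for each of the 4 fetuses, and sequenced with the 10x Genomics 3' v3.1 chemistry, and the authors aligned the reads to the Mmul_8.0.1 build with introns included. The methods and the file header name different releases of Cell Ranger, and the header names Cell Ranger 4. The deposited values are raw UMI counts per gene and barcode, not filtered and not corrected for free RNA.

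Barcodes were filtered as given in the report and integrated with Seurat 5.3.0 (2000 variable features, 30 dimensions, resolution 0.5, 23 clusters), with the 54 rows of the members and the pathway list withheld from the features. Clusters were named from marker lists, and stages by clustering the granule and oligodendrocyte nuclei again. Doublets were called with Scrublet in scanpy 1.11.5, whose automatic threshold marked 0% in Control male and LPS male and was replaced there by the mean of the other libraries' thresholds. Doublets (5.41 to 6.41% of nuclei) stayed in the main results and were removed in an alternative. They made up 15.2% of Bergmann glia, 11.3% of astrocytes, 6.22% of oligodendrocytes and 2.31% of Purkinje nuclei. In the cluster of proliferating granule precursors they made up 10.9%, and in the other granule clusters 0.835 to 2.84%.

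UMI counts were summed per class and library, so that the fetus is the replicate. The sums entered edgeR 4.0.16 (R 4.3.3), with its filter on low counts, TMM scaling and quasi-likelihood fit, and with Benjamini-Hochberg adjustment over all genes tested. Class and stage comparisons had the library as a block and a threshold of 0.05 on the adjusted p. All classes, or all stages of a lineage, entered a single fit and shared its estimate of the spread. LPS against Control had no block and thresholds of 0.1 and a log2 difference of 0.25. The free RNA share of a class was estimated from markers of other classes. The fits were also run on simulated counts with a fixed spread common to all genes and equal expected shares within a group. These libraries are less even than that, so the simulation does not show how the tests behave on them. Levels of different genes were not compared, since counts with introns depend on gene length.

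The members were named in every comparison. Pathway genes were counted per list and named where they were among the 2 highest or 2 lowest called of their list, for Bergmann glia against granule nuclei and astrocytes and for the ends of the granule and oligodendrocyte lineages. In the other class and stage comparisons they are not described. The members, lists and tests were chosen with earlier results of these data known. Alternatives were DESeq2 1.42.0, median-of-ratios scaling, no filter, at least 1000 genes per nucleus, doublets removed, free RNA subtracted, no library block, sex as a term and each library left out. Counting intervals and limits cover counting error only. Of the 59 listed pathway genes 47 were analysed here, and no genome was used. Some results on single genes are not reported here.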

Additional observations from a re-analysis of the deposited data

Results flagged for a closer look

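The LPS difference had opposite signs in the 2 sexes in 15 of the 28 tested pairs of a member and a class and in 16 of 30 pairs of a member and a granule stage. Over all genes tested the shares were 52.5% and 50.1%, so the members' counts are near the background. Given here are the 5 pairs in which the difference was at least 0.5 on log2(CPM + 1) in both sexes and each library held at least 10 UMIs, with 1 library per sex and group. FGFR1 in the granule lineage was lower in LPS than in Control in females (-0.79 on log2(CPM + 1)) and higher in males (1.42). The levels were 72.9 against 127 CPM in females and 412 against 154 CPM in males, and LPS male held 33.4% mature granule nuclei against 6.07 to 7.09% in the other libraries. FGF14 in oligodendrocytes was lower in LPS in females (-0.54) and higher in males (0.64), with 760 against 1105 CPM and 976 against 628 CPM. Of the oligodendrocyte nuclei of LPS male, 58 of 157 were of the mature stage, against 13 of 125, 5 of 97 and 9 of 87 in Control female, Control male and LPS female. Mature nuclei held less FGF14, a mean of 198 CPM, than precursor cells with 1123 CPM. The part of this makeup in the FGF14 difference was not tested. FGF12 in migrating granule nuclei was lower in LPS in females (-0.54) and higher in males (0.91). FGFR1 in mature granule nuclei was lower in LPS in females (-0.94) and higher in males (0.87). FGF13 in mature granule nuclei went the other way, higher in females (1.16) and lower in males (-1.64). The difference between the sexes was tested in none of these cases, since 1 fetus per sex and group leaves no spread to test against, and age and depth differ between these libraries too.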

How the results depend on the processing

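No member was called between LPS and Control under any alternative, and the lowest adjusted p was 0.98. The labels give the fetuses no replicate numbers, so no fit blocked on a replicate number was made, and sex as a term sets the fetuses of the same sex side by side. With 2 fetuses per group and 17 to 56 Purkinje nuclei per library, depth and group size limit what could be seen, and a lone library left in a group is assumed to vary like the other group. The cause of the changes listed here was not tested.

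The number of genes called between LPS and Control, 0 in each class, became 5 in proliferating granule precursors, 7 in committing, 11 in migrating and 4 in mature granule nuclei, 4 in Bergmann glia, 4 in astrocytes, 3 in Purkinje cells and 6 in oligodendrocytes without the filter on low counts. DESeq2 called 1 in committing, 1 in migrating and 2 in maturing granule nuclei and 1 in oligodendrocytes, and sex as a term gave 1 in committing, 1 in migrating and 2 in oligodendrocytes. Leaving out 1 library at a time gave 0 to 8 in proliferating precursors, 0 to 3 in committing and 0 to 4 in migrating granule nuclei, 8 to 62 in Bergmann glia, 1 to 7 in astrocytes, 0 to 9 in Purkinje cells and 2 to 44 in oligodendrocytes. In Bergmann glia the counts were 62 without Control female, 23 without Control male, 8 without LPS male and 15 without LPS female. The 44 in oligodendrocytes came without LPS female, which also gave the highest count in precursors, committing and migrating nuclei, astrocytes and Purkinje cells.

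Without the library block fewer genes were called between classes: 2969 in place of 5126 for Bergmann glia against granule nuclei, 2843 for astrocytes against granule nuclei, 329 for Bergmann glia against astrocytes and 2201 for oligodendrocytes against astrocytes. Between stages the counts were 631 for committing against proliferating precursors, 2560 for migrating against committing, 1957 for maturing against migrating, 521 for mature against maturing and 4323 for mature against proliferating precursors. Leaving out a library gave 605 to 1193 for Bergmann glia against astrocytes, with 605 without Control female and 663 without LPS female, 1481 to 2631 for committing against proliferating precursors, with 1481 without Control female and 1500 without LPS female, and 1433 to 2244 for mature against maturing, the lowest without Control female.

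Of the members' values in all class, stage and LPS comparisons, 92 changed direction, none of them called in the report. With free RNA subtracted the LPS difference was -0.18 for FGF14 in Bergmann glia and -0.091 for FGF12 in astrocytes, FGF9 differed by 0.11 between Bergmann glia and astrocytes and FGFR2 by 0.49 between mature and maturing nuclei. Subtraction also enlarged called stage differences, for FGFR1 from -0.80 to -1.43 (committing against proliferating) and from 1.33 to 2.10 (migrating against committing), for FGFR2 from -1.40 to -3.71 (migrating against committing) and from -1.94 to -8.98 (mature against proliferating), for FGF12 from 2.42 to 3.05 (maturing against migrating), for FGF14 from 2.85 to 3.43 (mature against proliferating), and between mature oligodendrocytes and their precursors for FGFR2 from 4.28 to 5.05, for FGF13 from -3.21 to -3.81 and for FGF14 from -2.39 to -3.02. The FGFR2 difference between maturing and migrating nuclei, -0.42 and not called, became -5.81 and was called. Subtracted counts were cut off at 0, and maturing and mature nuclei had 0 CPM of FGFR2 left. The FGFR2 values of -8.98, -5.81 and 0.49 therefore depend on that floor, and their sizes are not measured differences. In LPS male the FGFR2 count of migrating nuclei was cut off at 0 as well, so the size of -3.71 depends in part on the floor. With doublets removed the LPS difference in oligodendrocytes was -0.038 for FGFR2 and 0.074 for FGF14, and between committing and proliferating nuclei FGFR2 differed by -0.0051 and FGF9 by 0.20. Sex as a term gave 0.034 for FGF14 in oligodendrocytes. Without the library block FGF14 differed by -0.0069 between oligodendrocytes and astrocytes and FGF13 by 0.027 between mature and proliferating granule nuclei, for which DESeq2 gave 0.0032. Between LPS and Control within granule stages, free RNA subtraction gave FGFR1 -0.85 in committing nuclei and FGF13 0.040 in maturing and 0.057 in mature nuclei. There sex as a term gave FGFR1 -0.017 in committing, -0.12 in maturing and -0.025 in mature nuclei. With at least 1000 genes per nucleus FGF13 was -0.032 in migrating and FGF12 -0.0024 in maturing nuclei, and without the filter on low counts FGF13 was -0.0025 in migrating nuclei. With the 5 stages weighted equally and the other granule nuclei left out, FGF13 differed by 0.021 between LPS and Control in the lineage. That alternative was chosen after seeing the data.

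Leaving out 1 library at a time moved the LPS difference in the granule lineage from -0.94 to 1.56 for FGFR1, from -0.64 to 0.032 for FGFR2, from -0.29 to 0.29 for FGF9, from -0.16 to 0.62 for FGF12 and from -0.43 to 0.082 for FGF13. In Bergmann glia it moved from -0.26 to 0.18 for FGFR1, from -0.0037 to 1.08 for FGF9 and from -0.22 to 0.25 for FGF13. In astrocytes it moved from -0.25 to 0.48 for FGFR1, from -0.035 to 0.40 for FGFR2, from -0.15 to 1.03 for FGF9 and from -0.16 to 0.75 for FGF14. In Purkinje cells it moved from -0.69 to 0.042 for FGF9, from -1.01 to 0.53 for FGF12 and from -1.53 to 0.85 for FGF14. In oligodendrocytes it moved from -0.84 to 0.95 for FGFR1, from -0.15 to 0.31 for FGFR2, from -0.38 to 0.57 for FGF9, from -0.13 to 0.34 for FGF12 and from -0.44 to 0.53 for FGF14. In proliferating precursors it moved from -0.24 to 0.96 for FGFR1, from -0.038 to 0.46 for FGF9, from -0.015 to 0.55 for FGF12 and from -0.075 to 0.32 for FGF13. In committing nuclei it moved from -0.49 to 0.52 for FGFR1, from -0.12 to 0.38 for FGF9 and from -0.023 to 0.33 for FGF13. In migrating nuclei it moved from -0.51 to 0.63 for FGFR1, from -0.68 to 0.49 for FGFR2, from -0.10 to 0.014 for FGF9, from -0.35 to 0.66 for FGF12 and from -0.19 to 0.18 for FGF13. In maturing nuclei it moved from -0.87 to 0.60 for FGFR1, from -1.80 to 0.35 for FGFR2, from -0.34 to 0.52 for FGF12 and from -0.38 to 0.20 for FGF13. In mature nuclei it moved from -0.97 to 0.91 for FGFR1, from -1.70 to 0.71 for FGFR2, from -0.34 to 0.50 for FGF12, from -1.23 to 0.62 for FGF13 and from -0.39 to 0.68 for FGF14. Between classes and stages leaving out a library moved FGF9 from -0.33 to 0.048 (Bergmann glia against astrocytes), FGF14 from -0.088 to 0.23 (oligodendrocytes against astrocytes) and FGF13 from -0.37 to 0.33 (mature against proliferating granule nuclei). Of the other values of members, 1208 kept their direction and their side of the threshold, 30 fell below it and 22 passed it.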
